A study of Homo sapiens with 8 samples.

Results

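Calcium channels, pumps, exchangers and phospholipases C were read in 2D hIECs, intestinal epithelial cells differentiated from the established human embryonic stem cell line H9. The members were taken by symbol: the protein-coding genes of the CACNA, CACNB, CACNG, RYR, ITPR, ATP2A, ATP2B, ATP2C, SLC8, PLC (beta, delta, gamma, epsilon, zeta), STIM and ORAI families. The choice was not blind to these data. Earlier results were known, and the study had reported calcium signaling genes as mostly downregulated. There were 61 of them among the 60558 genes in the files. RNA-seq covered 4 groups of 2 libraries each, namely normal hIECs, normal hIECs with PM10 (coarse airborne particulate matter), inflamed hIECs, which received IFNγ and TNFα, and inflamed hIECs with PM10. The labels give 10 days of treatment for every library, and all libraries share the H9 origin and carry no engineered allele. The study added PM10 in the later part of the cytokine treatment. Nothing in the sources used here says whether the 2 libraries of a group came from separate cultures, so p-values measure only the spread between these libraries, which may be technical.

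A resting cell keeps cytosolic calcium far below the level outside and inside its ER. Calcium enters through voltage-gated channels, whose CACNA1 pores work with alpha-2-delta, beta and sometimes gamma subunits, or through ORAI pores that open when STIM proteins sense an emptied ER. Phospholipases C cut the membrane lipid PIP2 into diacylglycerol and IP3, and IP3 opens the IP3 receptors of the ER. SERCA pumps return calcium to the ER, SPCA pumps load the Golgi, and PMCA pumps and sodium-calcium exchangers send calcium out of the cell. In the intestine the PMCA pump ATP2B1 carries absorbed calcium across the basolateral membrane.

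Of the 61 members, 31 reached 1 FPKM (fragments counted on a gene, scaled to transcript length and library size) in at least 2 libraries and were tested. Another 17 were listed at 0 in all 8 libraries, among them all 3 ryanodine receptors (RYR1, RYR2, RYR3), the L-type pores CACNA1D, CACNA1F and CACNA1S, the pumps ATP2B2, ATP2B3 and ATP2C2, 5 of the 8 CACNG genes and PLCZ1. The remaining 13 were above 0 in at least 1 library but under the minimum: ATP2A1, ATP2A3, CACNA1A, CACNA1B, CACNA1E, CACNA1I, CACNB2, CACNB4, ITPR3, PLCB4, PLCG2, SLC8A1 and SLC8A3. Of the tested members, 25 were at or above 1 FPKM in every library. The other 6 (CACNA1H, CACNA2D2, CACNG4, PLCB2, PLCD4, PLCE1) fell under 1 FPKM in at least 1 library and passed through the libraries in which they were higher.

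The label of intestinal epithelium was only partly borne out by its markers. Of 11 intestinal markers, 8 were listed at 0 in all libraries (CDX2, VIL1, LYZ, MUC2, CHGA, FABP2, SI and ALPI). CDX1 stayed under the minimum. LGR5 and SOX9 were tested, and LGR5 was higher (0.97) and SOX9 lower (-1.63) in inflamed than in normal hIECs. The study itself reported CDX2, VIL1, LYZ, MUC2 and CHGA in its 2D hIECs by mRNA measurement and staining. Of 9 epithelial markers, only the 3 keratins KRT8, KRT18 and KRT19 were tested. EPCAM, CDH1, CLDN4 and ELF3 stayed under the minimum, and CLDN7 and ESRP1 were listed at 0. All 9 mesenchymal markers were tested, and their summed level lay between 2702 and 3592 FPKM. All 6 cytokine response genes checked were higher in inflamed hIECs. The lowest value above 0 was 0.164 to 0.228 FPKM across libraries, and what a listed 0 stands for was not tested. Read counts were not used here, so the depth of each library is unknown. Mitochondrially encoded genes took 15.5% to 24.2% of the summed FPKM, with the 2 normal libraries at 17.02% and 24.2%. Replicate libraries were farthest apart in normal hIECs, with a median SD of log2 values of 0.085 against 0.049 to 0.053 elsewhere.

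The first comparison asked what the cytokines did to calcium handling genes. The pump ATP2B1, the IP3 receptors ITPR1 and ITPR2, the store-operated pore ORAI1 and the subunit CACNA2D1 were higher in inflamed than in normal hIECs. The T-type pores CACNA1H and CACNA1G, the subunits CACNB3, CACNG4, CACNG7 and CACNA2D2, the exchanger SLC8A2, the pumps ATP2B4 and ATP2C1 and the phospholipases PLCD3, PLCD4, PLCE1 and PLCG1 were lower. In all, 18 of the 31 tested members passed the test, 5 higher and 13 lower, where 56.2% of the 14206 genes tested passed (25.9% higher and 30.3% lower). The test was limma on log2(FPKM + 1) with all 8 libraries in the fit and a Benjamini-Hochberg adjusted p-value under 0.05, and differences are given on that scale, which understates changes of weakly expressed genes. The median difference was -0.17 over the members and -0.03 over all genes tested. At least 2-fold differences on this scale were found in 8 members, 1 higher and 7 lower, against 9.39% of all genes (4.12% higher and 5.27% lower). Of those 7, CACNA1H, CACNG4 and CACNA2D2 passed the filter through the libraries without cytokines. Their selection favoured a fall, here and in the later cytokine counts. The same holds for PLCE1, among the 13 lower, and for PLCB2, which did not pass here. Whether such counts set the members apart was not tested. Bulk libraries cannot tell fewer cells of a type from less RNA per cell.

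The same comparison among PM10-treated cells shares no library with the first. There 20 members passed, 5 higher and 15 lower, where 65.4% of all genes passed (25.8% higher and 39.6% lower), and the median was -0.25 over the members and -0.11 over all genes. At least 2-fold differences were found in 9 members, 1 higher and 8 lower, where 5.32% of all genes were higher and 7.72% lower by as much. Those 8 again include CACNA1H, CACNG4 and CACNA2D2, whose selection favoured a fall. The same holds for PLCB2 and PLCE1, among the 15 lower. At an unadjusted p-value under 0.05 there were 20 members against 68.6% of all genes, and 19 against 61.4% without PM10. In both comparisons 5 members were higher and 12 were lower. ATP2B4 passed without PM10 but not with it, and PLCB2, PLCB3 and STIM2 passed with PM10 but not without it. None of these 4 passed the test of the difference between the comparisons. Counted by library, the 4 libraries with cytokines all lay above the 4 without in 5 members and all below in 15, and the sets overlapped in the other 11, while 57.5% of all genes did not overlap (24.4% higher and 33.1% lower). The 15 below include CACNA1H, CACNA2D2, CACNG4, PLCB2 and PLCE1, whose selection favoured a fall.

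**Figure D1:**
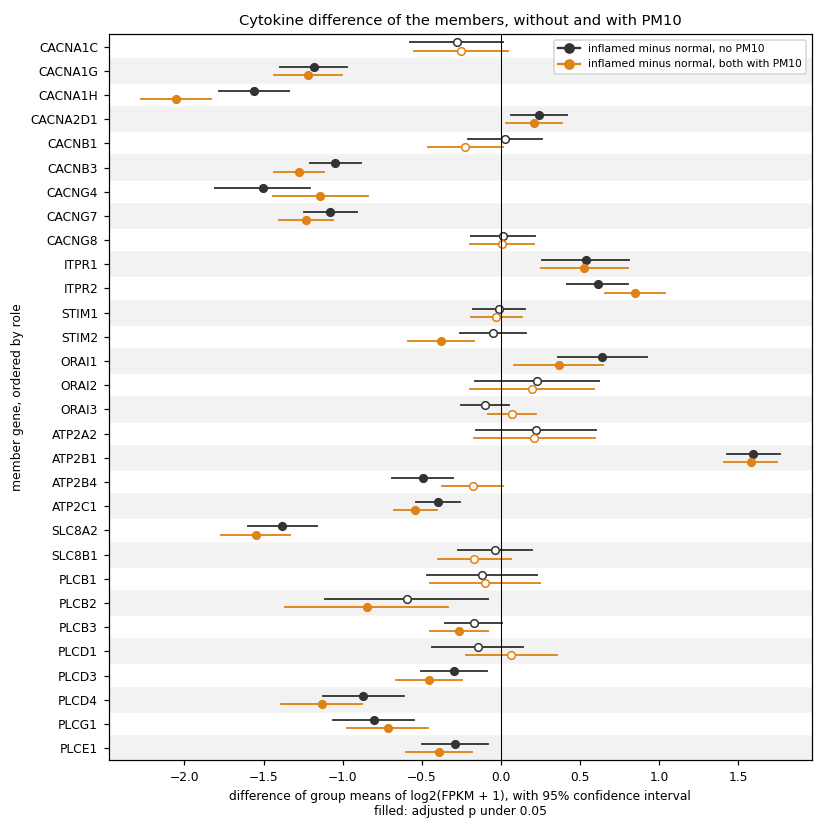
Difference between inflamed and normal hIECs for the tested members, without PM10 (black) and with PM10 (orange), as the difference of group means of log2(FPKM + 1) on the horizontal axis, with lines for 95% confidence intervals and filled points for an adjusted p-value under 0.05. ATP2B1 stood at 1.60 and 1.58 and CACNA1H at -1.56 and -2.05, and CACNA2D2, listed at 0 in all inflamed libraries, is left out.

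T-type genes made up most of the pore FPKM in normal hIECs, 8.96 of 11.8. CACNA1G (chr17:50560715-50627474 on GRCh38, plus strand) encodes a low-voltage-activated pore. It was at 5.68 and 6.01 FPKM in normal hIECs, 4.73 and 5.37 with PM10, 1.97 and 2.06 in inflamed hIECs, and 1.44 and 1.77 in inflamed hIECs with PM10. All 4 libraries with cytokines lay below the 4 without. The difference was -1.18 (SE 0.09, limma adjusted p = 3.53e-05), a 2.91-fold lower mean FPKM, and -1.22 between the PM10-treated groups (limma adjusted p = 2.14e-05).

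CACNA1H (chr16:1153106-1221771, plus strand), the other T-type pore at a testable level, was at 2.77 and 3.28 FPKM in normal hIECs, 4.37 and 4.47 with PM10, 0.312 and 0.412 in inflamed hIECs, and 0.327 and 0.282 in inflamed hIECs with PM10. Its cytokine-treated values sat just above the lowest value the files list. Its difference was -1.56 (SE 0.095, limma adjusted p = 1.07e-05) without PM10 and -2.05 (SE 0.095, limma adjusted p = 2.02e-06) with it. It passed the filter through the libraries without cytokines, so a difference in this direction was favoured by its selection. CACNA1H made up 32.0% to 48.0% of the summed T-type FPKM in the libraries without cytokines and 13.7% to 18.6% in those with. The third T-type gene, CACNA1I, was listed above 0 in 1 library. Summed over the 3 genes, T-type pores went from 8.96 ± 0.46 FPKM (SD, n = 2) in normal to 2.37 ± 0.13 in inflamed hIECs, and from 9.47 ± 0.53 to 1.91 ± 0.20 in the PM10-treated groups.

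CACNA1C, the L-type pore of smooth muscle and heart, was the only tested pore outside the T-type. It lay between 1.40 and 2.02 FPKM without cytokines and between 1.03 and 1.51 with them, so the sets overlapped, and it did not pass in either cytokine comparison. The P/Q-, N- and R-type pores CACNA1A, CACNA1B and CACNA1E stayed under 1 FPKM everywhere. CACNA1E, an R-type pore, was at 0.395 to 0.714 FPKM in the 4 libraries without cytokines and listed at 0 in the 4 with them. These genes were too low to test.

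The accessory subunits differed among themselves. CACNB3 (chr12:48813794-48828941, plus strand), a cytosolic beta subunit that brings pores to the membrane, was at 25.9 and 23.2 FPKM in normal hIECs, 23.9 and 22.5 with PM10, 11.2 and 11.6 in inflamed hIECs, and 8.84 and 9.13 in inflamed hIECs with PM10. It was lower by cytokines without PM10 (-1.05, SE 0.07, limma adjusted p = 1.49e-05) and with PM10 (-1.28, limma adjusted p = 3.95e-06). CACNB1, its muscle-type relative, lay between 3.74 and 5.34 FPKM in all libraries and did not pass in either cytokine comparison. CACNB3 thus gave 79.0% to 83.2% of the beta-subunit FPKM without cytokines and 66.4% to 68.0% with them.

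CACNA2D1 and CACNA2D2 encode alpha-2-delta subunits, extracellular partners of the pore and the binding site of gabapentin. CACNA2D1 was at 2.89 to 3.30 FPKM in the 4 libraries without cytokines and at 3.73 to 3.86 in the 4 with them, with no overlap. The difference of 0.24 (limma adjusted p = 0.0272) did not hold without normal replicate 2 (0.17, limma adjusted p = 0.0957) or without either inflamed library (limma adjusted p = 0.107 and 0.0851). With PM10 in both groups the difference was 0.21 (limma adjusted p = 0.04). That call did not hold without any one of the 4 libraries compared, with differences of 0.188 to 0.231. It was also lost without the filter on level (limma adjusted p = 0.0516). CACNA2D2 was at 1.39 and 1.15 FPKM in normal hIECs and 1.36 and 1.04 with PM10, and was listed at 0 in all 4 libraries with cytokines. It passed the test in both cytokine comparisons, and no fold is given against values of 0.

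The CACNG genes are named for a gamma subunit of muscle channels, but CACNG4, CACNG7 and CACNG8 encode proteins best known as partners of AMPA-type glutamate receptors. CACNG7 (chr19:53909278-53943950, plus strand) was the most abundant member in the 4 libraries without cytokines, at 37.4 and 43.2 FPKM in normal hIECs and 37.7 and 38.9 with PM10. It was at 18.3 and 18.8 in inflamed hIECs and 15.4 and 16.1 in inflamed hIECs with PM10. The difference was -1.08 (SE 0.07, limma adjusted p = 1.77e-05) without PM10 and -1.23 (limma adjusted p = 6.2e-06) with it. CACNG8, its downstream neighbour on the same strand, was at 1.05 to 1.41 FPKM without cytokines and 1.04 to 1.45 with them, and its difference was 0.01 (95% confidence interval -0.19 to 0.22). CACNG4 was at 1.83 to 2.34 FPKM without cytokines and at 0.352 or less with them, with 1 inflamed library listed at 0, and it passed in both comparisons.

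**Figure D2:**
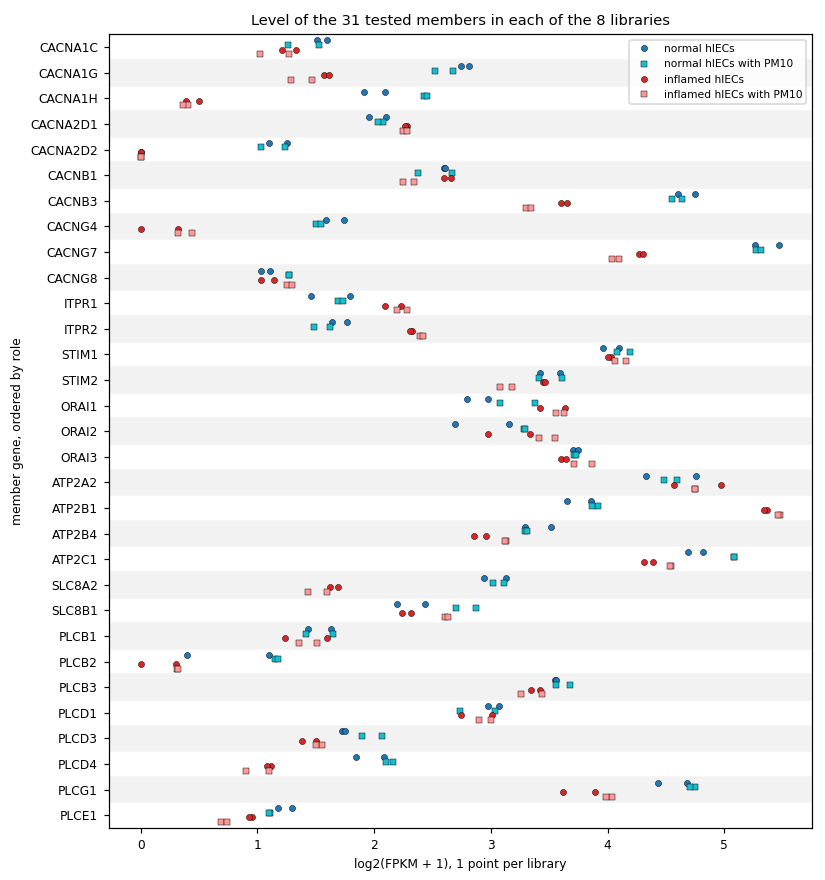
Level of each tested member in each of the 8 libraries, ordered by role, on a horizontal axis of log2(FPKM + 1), where each point is 1 library, circles are libraries without and squares libraries with PM10, and blue tones mark normal and red tones inflamed hIECs. Red and blue points separate for ATP2B1, CACNG7 and SLC8A2 and mix for STIM1 and CACNG8.

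Several of these genes are best known from neurons, so neuronal markers were read beside them. The summed FPKM of the neuronal markers was 320 to 365 in the 4 libraries without cytokines and 168 to 172 in the 4 with them. Of the 7 markers tested, 5 were lower in inflamed hIECs (NEFM, STMN2, INA, SNAP25 and TUBB3) and 2 were higher (SYT1 and SYP), while ELAVL3 and ELAVL4 were listed at 0 throughout. The summed epithelial markers moved the same way, with 598 to 652 FPKM without cytokines and 287 to 352 with them. Only the keratins KRT8, KRT18 and KRT19 of that list were tested. KRT8 (-0.815) and KRT18 (-0.989) were lower in inflamed hIECs, and KRT19 did not pass. Smooth muscle markers moved the other way, with 1287 to 1700 FPKM without cytokines and 2441 to 2493 with them. The part of these markers in the channel differences was not tested.

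Of the ER release channels among the members, the IP3 receptors were detected and the ryanodine receptors were listed at 0. ITPR1 (chr3:4493345-4847506, plus strand) was at 2.47 and 1.75 FPKM in normal hIECs, 2.22 and 2.32 with PM10, 3.27 and 3.69 in inflamed hIECs, and 3.86 and 3.58 in inflamed hIECs with PM10. ITPR2 (chr12:26335352-26833194, minus strand) was at 2.41 and 2.11, 1.80 and 2.08, 4.005 and 3.96, and 4.24 and 4.34 FPKM in the same order. Both receptors were higher in every library with cytokines than in any without. ITPR1 differed by 0.54 (SE 0.12, limma adjusted p = 0.00635) and ITPR2 by 0.61 (SE 0.08, limma adjusted p = 0.000556) without PM10, and by 0.53 and 0.85 with it (limma adjusted p = 0.00555 and 8e-05). ITPR3, the third receptor, lay at 0 to 0.332 FPKM without and 0.5 to 0.796 with cytokines, under the minimum for testing.

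Of the 5 genes of store-operated entry, ORAI1 passed in both cytokine comparisons and STIM1 in neither. ORAI1 (chr12:121626509-121643218, plus strand), the pore that STIM proteins open, was at 6.88 and 5.93 FPKM in normal hIECs, 7.45 and 9.38 with PM10, 9.71 and 11.4 in inflamed hIECs, and 11.4 and 10.8 in inflamed hIECs with PM10. The difference was 0.64 (SE 0.12, limma adjusted p = 0.003) without PM10. With PM10 it was 0.37 (limma adjusted p = 0.0291) and did not hold without normal PM10 replicate 1 (0.22, limma adjusted p = 0.174) or without either inflamed PM10 library (limma adjusted p = 0.12 and 0.0726). STIM1, the main ER sensor, lay between 14.6 and 17.3 FPKM in all 8 libraries, and its cytokine difference was -0.01 (95% confidence interval -0.18 to 0.15). STIM2 and the pores ORAI2 and ORAI3 did not pass without PM10 either.

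The pumps moved in opposite directions within a family. ATP2B1 (chr12:89588049-89709366, minus strand), the PMCA pump present in most tissues, was at 13.5 and 11.6 FPKM in normal hIECs, 14.2 and 13.5 with PM10, 40.2 and 39.5 in inflamed hIECs, and 43.5 and 43.1 in inflamed hIECs with PM10. Each library with cytokines was far above each library without. The difference was 1.60 (SE 0.07, limma adjusted p = 2.19e-06), a 3.18-fold higher mean FPKM, and 1.58 (SE 0.07, limma adjusted p = 1.79e-06) between the PM10-treated groups. It was the largest rise among the members in both comparisons. ATP2B1 was 11.6 to 14.2 FPKM against 24.8 to 32.9 for the Golgi pump ATP2C1 without cytokines, and above it in every library with cytokines.

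ATP2B4 (chr1:203626832-203744081, plus strand), the other PMCA pump at a testable level, was at 10.4 and 8.78 FPKM in normal hIECs, 8.82 and 8.94 with PM10, 6.76 and 6.25 in inflamed hIECs, and 7.76 and 7.70 in inflamed hIECs with PM10. It was lower without PM10 (-0.50, SE 0.08, limma adjusted p = 0.00173), and the -0.18 with PM10 did not pass (limma adjusted p = 0.0931). ATP2B1 therefore held 56.4% to 61.6% of the summed PMCA FPKM in the libraries without cytokines and 84.9% to 86.3% in those with them. The sum over the 4 PMCA genes was 22.1 ± 2.51 FPKM (SD, n = 2) in normal and 46.3 ± 0.90 in inflamed hIECs.

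The promoter sequences of these 2 pumps are shown because they moved in opposite directions, and that of SLC8A2 because it had the largest fall among the members matched to a sequence, a choice made after its values were seen. Sequences are the 250 bases before the first listed RefSeq start on GRCh38.p14, at chr12:89709367-89709616 (minus strand), chr1:203626582-203626831 (plus strand) and chr19:47471894-47472143 (minus strand). Capitals mark matches on either strand to the kappa-B motif or a xenobiotic response element (GCGTG), and overlapping matches run together.
ATP2B1: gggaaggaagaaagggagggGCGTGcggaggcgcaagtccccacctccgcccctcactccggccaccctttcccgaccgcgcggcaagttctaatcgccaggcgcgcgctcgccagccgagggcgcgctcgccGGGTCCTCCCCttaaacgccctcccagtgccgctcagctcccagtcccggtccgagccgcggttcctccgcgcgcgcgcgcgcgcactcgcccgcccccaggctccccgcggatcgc
ATP2B4: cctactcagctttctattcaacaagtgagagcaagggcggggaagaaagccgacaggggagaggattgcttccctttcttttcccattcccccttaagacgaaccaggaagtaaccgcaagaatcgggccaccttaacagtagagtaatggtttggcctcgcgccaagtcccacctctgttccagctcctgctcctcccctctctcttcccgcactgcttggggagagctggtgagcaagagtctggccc
SLC8A2: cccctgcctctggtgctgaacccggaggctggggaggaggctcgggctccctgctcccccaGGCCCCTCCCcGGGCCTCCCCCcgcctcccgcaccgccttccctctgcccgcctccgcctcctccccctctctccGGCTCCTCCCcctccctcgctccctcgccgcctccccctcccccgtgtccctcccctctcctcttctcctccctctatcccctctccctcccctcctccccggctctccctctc
ATP2B1 held 2 overlapping kappa-B matches and 1 xenobiotic element, SLC8A2 held 4 kappa-B matches, and ATP2B4 held neither. Matches to GAS (TTCNNNGAA), ISRE and AP-1 (TGANTCA) were found in none of the 3. Promoters were matched for 20 of the 31 tested members. The kappa-B letters were in 18 of those 20 and in 53.7% of 27305 promoters, and GCGTG was in 10 of the 20 and in 31.9% of all. GAS, ISRE and AP-1 letters were in 0 of the 20, and in 6.78%, 3.07% and 6.60% of all promoters. The members' promoters also had more G and C, at a median of 66.8% over 43 members against 58.0% over all, and a match is a run of letters, not a measured binding site.

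The other pumps changed less. ATP2C1 (chr3:130850595-131016712, plus strand), which loads the Golgi with calcium and manganese, was at 27.1 and 24.8 FPKM in normal hIECs, 32.8 and 32.9 with PM10, 18.9 and 19.97 in inflamed hIECs, and 22.3 and 22.2 in inflamed hIECs with PM10. Libraries with cytokines lay below those without, with a difference of -0.40 (SE 0.06, limma adjusted p = 0.00092) and of -0.54 among PM10-treated cells (limma adjusted p = 0.000146). ATP2A2, the SERCA pump of most tissues, lay between 19.1 and 30.3 FPKM, and its 2 libraries differed as much as 30.3 and 22.7 in inflamed hIECs. Its difference of 0.22 (95% confidence interval -0.16 to 0.60) did not pass.

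Of the exchangers, SLC8A2 (chr19:47428017-47471893, minus strand), a sodium-calcium exchanger best known from brain, was at 6.69 and 7.74 FPKM in normal hIECs, 7.08 and 7.66 with PM10, 2.22 and 2.08 in inflamed hIECs, and 2.02 and 1.71 in inflamed hIECs with PM10. The 4 libraries with cytokines all lay below the others. It was 3.36-fold lower in mean FPKM without PM10 (-1.38, SE 0.09, limma adjusted p = 1.78e-05) and 3.96-fold lower with it (-1.55, limma adjusted p = 6.82e-06). Its relatives SLC8A1 and SLC8A3 stayed under 1 FPKM. SLC8A3 was listed at 0 in the 4 libraries without cytokines and at 0.284 to 0.313 in the 4 with them, close to the lowest value the files list. SLC8B1, which returns calcium from mitochondria to the cytosol, was at 4.40 and 3.58 FPKM in normal and 3.72 and 3.97 in inflamed hIECs and did not pass in the cytokine comparisons.

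Of the 8 tested phospholipases C, which act upstream of the IP3 receptors, 4 were lower and none higher in inflamed hIECs, where 30.3% of all genes were lower and 56.2% were called in either direction. PLCE1, among those 4, passed the filter through the libraries without cytokines, so its selection favoured a fall. PLCG1 (chr20:41136960-41196801, plus strand), the form activated by receptor tyrosine kinases, was the most abundant of them, at 24.7 and 20.6 FPKM in normal hIECs, 25.9 and 25.1 with PM10, 13.9 and 11.3 in inflamed hIECs, and 15.4 and 14.9 in inflamed hIECs with PM10. Its difference was -0.80 (SE 0.11, limma adjusted p = 0.000593) without PM10 and -0.72 (limma adjusted p = 0.000829) with it. PLCD4 (chr2:218607855-218637184, plus strand), a calcium-sensitive delta form, was at 3.25 and 2.60, 3.29 and 3.49, 1.16 and 1.12, and 0.871 and 1.14 FPKM in the same order, a difference of -0.87 (SE 0.11, limma adjusted p = 0.000407) without PM10 and -1.13 (limma adjusted p = 7.74e-05) with it. Both genes showed no overlap between libraries with and without cytokines.

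Of the other phospholipases, PLCD3 (-0.30, limma adjusted p = 0.0232) and PLCE1, an epsilon form that Ras activates, were lower in inflamed hIECs. The PLCD3 call did not hold without normal replicate 1 or 2 (limma adjusted p = 0.0542 and 0.0726) or inflamed replicate 2 (limma adjusted p = 0.122). PLCB1 and PLCB3, which Gq proteins activate, and PLCD1 did not pass without PM10. PLCB2 was at 1.15 and 0.314 FPKM in the 2 normal libraries and at 0.248 or less in those with cytokines, and it passed between the PM10-treated groups (-0.85, limma adjusted p = 0.0111), a call lost with quantile normalization (limma adjusted p = 0.0504). PLCB2 passed the filter through libraries without cytokines, so a difference in this direction was favoured by its selection. Summed over the 11 genes, phospholipases C were at 50.4 ± 4.72 FPKM (SD, n = 2) in normal and 34.2 ± 4.04 in inflamed hIECs.

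**Figure D3:**
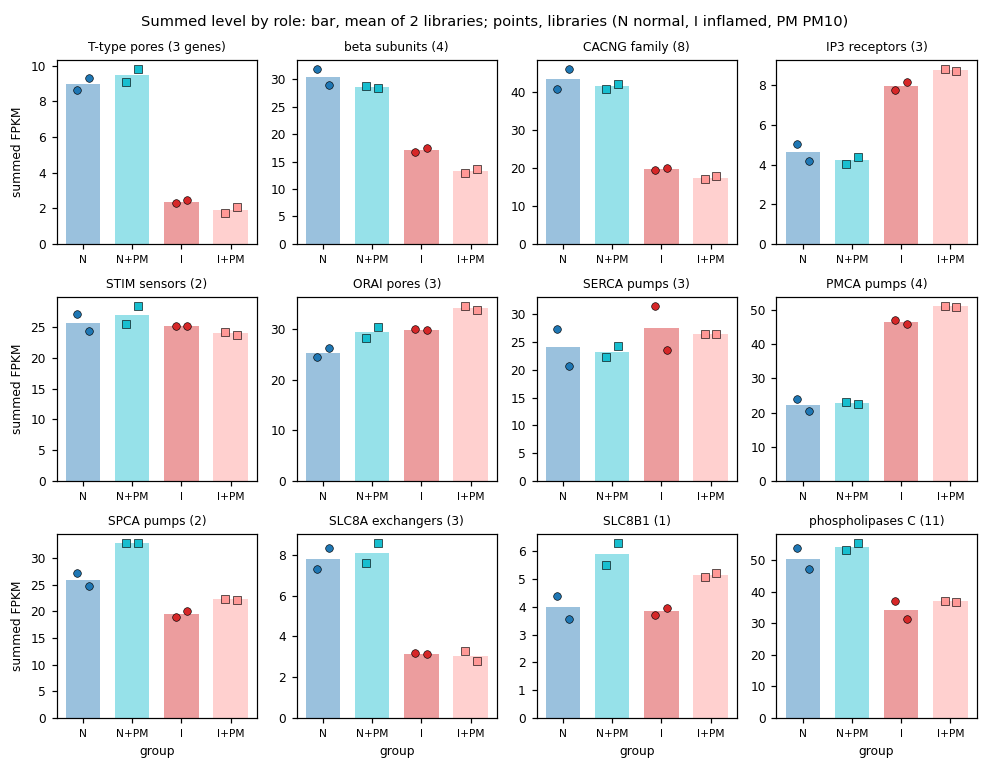
Summed FPKM (vertical axis) by role in normal (N) and inflamed (I) hIECs without and with PM10 (PM), where bars are means of 2 libraries, start at 0 and have a scale of their own in each panel, and points are libraries. PMCA pumps stood at 22.1 in normal and 46.3 FPKM in inflamed hIECs, T-type pores at 8.96 and 2.37.

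Since the libraries carry no strand, reads shared with a gene on the opposite strand cannot be assigned with certainty. Among tested members, opposite-strand neighbours with a mean above 1 FPKM overlap exons of ATP2B1 (ATP2B1-AS1, 1.79 FPKM), ATP2C1 (ASTE1, 2.17), PLCD4 (ZNF142, 2.30), PLCD3 (NMT1, 17.7, and ACBD4, 3.93), PLCG1 (ZHX3, 2.12), ORAI2 (ALKBH4, 6.04) and ITPR1 (a long non-coding RNA, 1.40). ORAI3 overlaps a long non-coding RNA on its own strand (2.14). The level of PLCD4, at 1.12 and 1.16 FPKM in inflamed hIECs, was thus under that of the gene it overlaps. ATP2B1-AS1 itself was at a mean of 1.70 FPKM in normal and 2.43 in inflamed hIECs. Some neighbours under that cut passed 1 FPKM in a group mean. ITPR2-AS1, on the strand of ITPR2, was at 0 in normal and 1.025 in inflamed hIECs. A long non-coding RNA opposite CACNA2D2 was at 1.02 and 0.313, and another on the strand of STIM1 at 0.65 and 1.01.

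PM10 was then compared with no particles, first in normal hIECs. SLC8B1, CACNA1H and ATP2C1 were higher, and no member was lower. These 3 of 31 stood against 9.23% of all genes that passed (5.51% higher and 3.72% lower), and the median difference was 0.02 over the members and 0.06 over all genes. No member reached 2-fold, which 0.577% of all genes did (0.190% higher and 0.387% lower), and 5 members were at an unadjusted p-value under 0.05, among 29.6% of all genes. SLC8B1 rose from 4.40 and 3.58 to 5.51 and 6.31 FPKM (0.47, SE 0.10, limma adjusted p = 0.0304), CACNA1H from 2.77 and 3.28 to 4.37 and 4.47 (0.43, SE 0.10, limma adjusted p = 0.0351) and ATP2C1 from 27.1 and 24.8 to 32.8 and 32.9 (0.33, SE 0.06, limma adjusted p = 0.0196). All 3 calls were lost when only the 4 libraries compared were fitted (limma adjusted p = 0.162, 0.148 and 0.131) and when either normal PM10 library was left out. In the same comparison 3 of 4 tested smooth muscle markers were lower, with sums of 1573 to 1700 FPKM without and 1287 to 1312 with PM10, and their part in the member differences was not tested.

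In inflamed hIECs, PM10 went with lower CACNB3 and STIM2, and no member was higher. These 2 of 31 stood against 15.2% of all genes that passed (6.22% higher and 9.02% lower), and the median was 0.07 over the members and -0.01 over all genes. CACNB3 fell from 11.2 and 11.6 to 8.84 and 9.13 FPKM (-0.31, SE 0.07, limma adjusted p = 0.0249). STIM2, the sensor tuned to small drops in ER calcium, fell from 9.88 and 10.1 to 7.46 and 8.04 FPKM (-0.33, SE 0.09, limma adjusted p = 0.0485). At an unadjusted p-value under 0.05, 5 members were higher (ATP2B4, ATP2C1, ORAI3, PLCG1, SLC8B1) and 6 were lower (CACNA1G, CACNB1, CACNB3, CACNG7, PLCE1, STIM2), where 32.2% of all genes were. No member reached 2-fold, against 0.845% of all genes (0.317% higher and 0.528% lower). Both calls were lost without any one of the 4 libraries compared, and 6 members passed, among them SLC8B1 (0.34, limma adjusted p = 0.0289) and ATP2C1 (0.19, limma adjusted p = 0.0298) on the higher side, when normal replicate 2 was left out, and 6 also without normal replicate 1. Of 9 mesenchymal markers, 6 were lower with PM10 in inflamed hIECs and 1 was higher, with sums of 3418 to 3455 FPKM without and 2702 to 2741 with PM10. Of 3 tested epithelial markers, KRT18 was lower (-0.35, limma adjusted p = 0.0169) and the other 2 did not pass. The part of these markers in the member differences was not tested.

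The study measured CACNA1G, SLC8A2 and PLCD4 by qPCR to follow up these libraries, so their direction here is not independent of that choice. By qPCR it reported a significant decrease of all 3 with PM10 in inflamed hIECs. In inflamed hIECs, the PM10 libraries did not overlap those without particles for CACNA1G and SLC8A2 and did for PLCD4. With 2 libraries a side, exact permutation gives such a separation a two-sided p of 0.333, and its share over all genes was not counted. The 95% confidence intervals of the log2 differences ran from -0.43 to 0.00, from -0.36 to 0.08 and from -0.35 to 0.16. In normal hIECs the intervals were -0.39 to 0.04, -0.19 to 0.25 and -0.09 to 0.42, and none of the 3 genes passed in either setting.

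**Figure D4:**
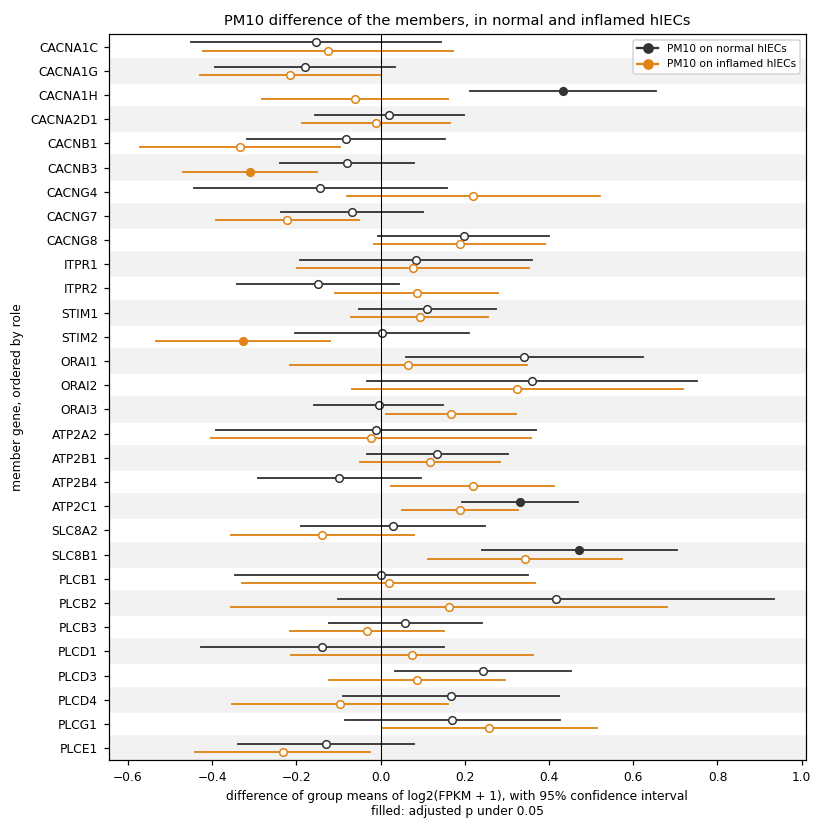
Difference with PM10 for the tested members in normal (black) and inflamed (orange) hIECs, as the difference of group means of log2(FPKM + 1) on the horizontal axis, with lines for 95% confidence intervals and filled points for an adjusted p-value under 0.05. SLC8B1, CACNA1H and ATP2C1 are filled in normal hIECs and CACNB3 and STIM2 in inflamed hIECs, and CACNA2D2 is left out.

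Whether PM10 acted differently in inflamed and normal hIECs was tested by the interaction. By limma, 0 of the 31 members passed, where 6.60% of all genes did (2.11% higher and 4.48% lower), none reached 2-fold against 1.41% of all genes (0.711% higher and 0.697% lower), and 4 members were at an unadjusted p-value under 0.05, among 23.6% of all genes. CACNA1H had the largest difference of differences (-0.49, limma adjusted p = 0.0752): it was higher with PM10 in normal hIECs, while in inflamed hIECs it was at 0.312 and 0.412 FPKM without and 0.327 and 0.282 with PM10. ATP2B4 passed when normal replicate 2 was left out (0.43, limma adjusted p = 0.0422). The interaction estimates for CACNA1G, SLC8A2 and PLCD4 were -0.035, -0.17 and -0.26, with 95% confidence intervals of -0.34 to 0.27, -0.48 to 0.14 and -0.63 to 0.10.

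Against untreated normal hIECs, the baseline of the study, inflamed hIECs with PM10 had 7 members higher and 16 lower, 23 in all, where 66.3% of all genes passed (30.4% higher and 35.9% lower). At least 2-fold differences were found in 8 members, 1 higher and 7 lower, against 13.9% of all genes (5.49% higher and 8.37% lower). Those 7 include CACNA1H, CACNG4 and CACNA2D2, which passed the filter through the libraries without cytokines, so their selection favoured a fall. The same holds for PLCE1, among the 16 lower. At an unadjusted p-value under 0.05 there were 24 members, against 69.5% of all genes. This comparison shares its libraries with the others. ATP2B1 differed by 1.71 (limma adjusted p = 1.08e-06), CACNA1H by -1.62, SLC8A2 by -1.52 and CACNA1G by -1.40. SLC8B1 (0.31, limma adjusted p = 0.0269) and ORAI2 (0.56, limma adjusted p = 0.0204) also passed on the higher side. SLC8B1 lost the call without normal replicate 2 (0.19, limma adjusted p = 0.129), without either inflamed PM10 library (limma adjusted p = 0.0773 and 0.103) and when the 4 libraries compared were fitted alone (limma adjusted p = 0.0504). ORAI2 lost it without normal replicate 1 (0.32, limma adjusted p = 0.112) and without inflamed PM10 replicate 2 (0.48, limma adjusted p = 0.101).

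Genes that work with the members were read from lists of related calcium genes, whose counts stand beside 25.9% of all genes called higher and 30.3% called lower. Of 22 tested calcium effectors, 6 were higher and 10 lower in inflamed hIECs. RCAN2, an inhibitor of calcineurin, was lower by cytokines (-1.90), as were the transcription factors NFATC4 (-1.08) and NFATC1 (-0.95), while the myosin kinase MYLK (1.35) and the kinase CAMK4 (0.79) were higher. Of 22 tested genes of the ER calcium store, 14 were higher and 4 lower, with ASPH (0.59) and NUCB2 (0.51) above and the junctophilins JPH3 (-1.07) and JPH4 (-0.79) and FKBP1B (-0.57) below. Mitochondrial uptake had 4 higher and 1 lower of 11, with MCUB, a dampening subunit of the uniporter, at 1.13, VDAC1 at 0.38, MCU at 0.31 and MCUR1 at 0.30 and the uniporter regulator SMDT1 at -0.81.

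Other calcium-permeable channels had 6 higher and 2 lower of 14 tested, with TRPV2 (1.30), the mechanically gated PIEZO1 (0.82), TRPM7 (0.48) and TRPC1 (0.38) above and MCOLN3 (-1.79) below. Of 22 tested genes that act on Gq, diacylglycerol or IP3, 6 were higher and 9 lower. The RGS proteins RGS5 (-2.34), RGS2 (-1.25) and RGS4 (-0.95), which switch off G proteins, and the diacylglycerol kinase DGKI (-0.86) were lower, and the Gq-class alpha subunit GNA14 (0.68) was higher. Of 2 tested relatives of the phospholipases C, PLCL2 was higher (0.29) and PLCXD1 lower (-0.26). The list medians were -0.06 for effectors, 0.20 for the ER store, 0.08 for mitochondrial uptake, 0.02 for other channels and -0.12 for the Gq list, beside -0.03 over all genes.

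**Figure D5:**
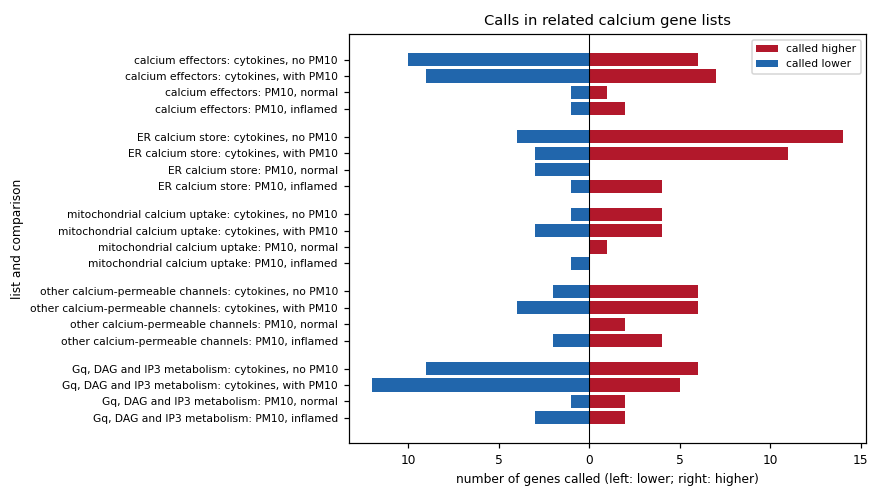
Number of genes (horizontal axis) called lower (blue, left of 0) and higher (red, right of 0) in 5 related lists for 4 comparisons. The ER store list reached 14 higher and 4 lower with cytokines, while PM10 called at most 6 genes in any list.

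With PM10, 9.23% of all genes passed in normal and 15.2% in inflamed hIECs. In normal hIECs, 2 effectors, 3 ER store genes, 1 mitochondrial gene, 2 other channels and 3 genes of the Gq list passed, and in inflamed hIECs 3, 5, 1, 6 and 5. TRPV2 rose further in inflamed hIECs with PM10 (0.60, limma adjusted p = 0.0105) and RGS2 fell further (-0.53, limma adjusted p = 0.00102). RGS2 was at 93.8 and 88.1 FPKM in normal hIECs, 93.4 and 91.9 with PM10, 37.7 and 37.5 in inflamed hIECs, and 25.4 and 25.9 in inflamed hIECs with PM10. The interaction passed for 6.60% of all genes and for 9 genes of these lists, namely NFATC1, CAMK1, JPH2, ASPH, CALU, PIEZO2, IMPA2, RGS2 (-0.56, limma adjusted p = 0.00619) and MCOLN3 (-1.11, limma adjusted p = 0.00921), a lysosomal channel that was higher with PM10 in normal hIECs (0.68) and lower in inflamed hIECs (-0.43).

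Of 8 genes of intestinal calcium absorption only the vitamin D receptor VDR could be tested, and TRPV5, S100G, CALB1, CYP24A1 and CASR were listed at 0 in all libraries. VDR was at 0.953 and 0.856 FPKM in normal hIECs, 1.55 and 1.79 with PM10, 3.52 and 3.08 in inflamed hIECs, and 5.28 and 5.29 in inflamed hIECs with PM10. It passed the filter through the treated libraries, so its selection favoured a rise against untreated normal hIECs. It was higher with cytokines (1.17, limma adjusted p = 2.83e-05) and with PM10 in normal (0.48, limma adjusted p = 0.0199) and inflamed hIECs (0.55, limma adjusted p = 0.00777).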

How the data were processed

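RNA-seq of 8 libraries in 4 groups was used, with groups taken from the sample labels. The values the authors deposited are FPKM, 1 per gene and library, from poly-A selected libraries without strand information. Adapters were removed with Cutadapt, reads trimmed with Sickle, aligned to GRCh38 with HISAT2 and quantified with StringTie, with no further scaling between libraries, and the annotation release is not given in the sources used here. Counts were not recovered, so depth is unknown and no count test was run. No batch is given in the labels. Positions and overlaps came from GENCODE release 44, which held 99.5% of the gene identifiers, and promoter sequences from RefSeq (GRCh38.p14).

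FPKM were analysed as log2(FPKM + 1), the pseudocount being 1. limma 3.58.1 (R 4.3.3) with a variance trend was fitted to the 14206 genes that reached 1 FPKM in 2 or more libraries. P-values of each of the 6 comparisons were adjusted separately (Benjamini-Hochberg), and the fit was tested on simulated data. For a single gene in groups of 2, exact permutation gives a two-sided p of 0.333 at best. Tables and plots used Python 3.11.15, pandas 2.3.3 and matplotlib 3.10.9. Members, gene lists and motifs were chosen with earlier results of these data known. Fold changes were given for called members (up to 12 in each direction), the 3 members measured by qPCR and up to 5 called genes per related list. Genes named beyond this rule (STIM1, ATP2A2, CACNG8, TRPV2 and RGS2 with PM10, MCOLN3 in the interaction, ATP2B4 and CACNA1H in the interaction, SLC8A2 as a promoter, and members at 0 or under the minimum) were chosen after their values were seen. Alternatives covered the pseudocount, filters, scaling, restriction to protein-coding genes, fits of the compared groups alone, a fit without the trend, blocking on replicate number, and leaving out each library. A gene of the neuronal marker list is not reported here.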

Additional observations from a re-analysis of the deposited data

How the results depend on the processing

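Values for the named members were computed under 728 combinations of result and alternative setting, of which 705 kept direction and call, 19 lost the call and 4 changed sign. With 1 library left out in turn, 479 of 536 kept both, 51 lost the call and 6 changed sign or went to 0. The members called in inflamed against normal hIECs numbered 15 to 18 with 1 library left out, and 17 to 21 with PM10 in both groups.

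PM10 results moved most. In normal hIECs, the 3 called members became 0 when only the groups compared were fitted, and 0 to 4 with 1 library left out. In inflamed hIECs, the 2 called members became 1 with a pseudocount of 0.1, 1 without the variance trend, 4 with median centring, 4 with only the groups compared, and 0 to 6 with 1 library left out. Members past 2-fold went from 0 to 1 with a pseudocount of 0.1, both for PM10 in inflamed hIECs and for the interaction. Called members in the interaction ranged from 0 to 1 with 1 library left out.

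SLC8A2 with PM10 in normal hIECs (0.029) changed sign with median centring (-0.025) and quantile normalization (-0.041), and ranged from -0.062 to 0.121 with 1 library left out. The interaction of CACNA1G (-0.035) changed sign with median centring (0.012) and quantile normalization (0.087), and ranged from -0.127 to 0.057 with 1 library left out. PLCD4 with PM10 in inflamed hIECs (-0.097) ranged from -0.194 to 0.000. The cause was not tested.

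Over all genes, calls with PM10 in normal hIECs numbered 1311, and 23 with only the groups compared, 2032 with FPKM rescaled without mitochondrial genes (an alternative chosen after seeing the data), and 194 to 2627 with 1 library left out. Of those calls 59.7% were higher, against 42.9% with median centring and 75.4% rescaled without mitochondrial genes. Calls with PM10 in inflamed hIECs went from 2165 to 675 at the lowest with 1 library left out, and those of the interaction from 937 to 263. Higher calls were 40.8% with PM10 in inflamed hIECs and 50.8% with quantile normalization, and 32.0% and 45.7% (median centring) in the interaction.

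The labels do not say whether same-numbered libraries were paired. The correlation of their deviations ran from -0.002 to 0.079, which gave no sign of pairing but cannot settle it. With the replicate number as a block, the members called with PM10 in inflamed hIECs went from 2 to 1, STIM2 losing its call (limma adjusted p = 0.0644). FPKM without counts limits how far low members such as CACNA1H under cytokines can be resolved.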
